A study of Mus musculus with 6 samples.

Results

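The Kruppel-like factor (Klf) genes of resting B cells were examined in WT and GPR174-deficient follicular B cells. The 7 genes were chosen by name: Klf2, Klf3, Klf4, Klf6, Klf7, Klf10 and Klf13. All 7 were among the 12431 genes of the count table, and all 7 passed the filter on low counts. Follicular B cells (CD21/35- CD23+) were sorted from the spleens of adult male mice and kept for 1 h in complete RPMI medium with serum and no added stimulus. The 3 WT libraries came from Gpr174+/Y mice. The 3 KO libraries came from Gpr174-/Y mice, which lack the receptor in every cell because tdTomato stands in for the single coding exon of this X-linked gene. GPR174 is a lysophosphatidylserine receptor that can signal through Gαs, the G protein subunit that raises cAMP, and the comparison asks which transcripts depend on it early in culture. Nothing in the labels says that the libraries of a group came from pooled mice.

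Klf proteins bind CACCC and GC-rich elements through 3 zinc fingers at their C termini, and some activate while others repress. In lymphocytes KLF2 is known for keeping naive cells at rest and for driving homing and egress receptors, and KLF4 is known for restraining the cell cycle. KLF3 is a repressor that competes for the same elements and, in B cells, takes part in the balance between follicular and marginal zone cells. KLF6 and KLF10 are products of early inducible genes, and KLF10 was first named for its induction by TGF-β. The quiescence members are therefore Klf2, Klf3 and Klf4, the inducible members are Klf6 and Klf10, and Klf7 and Klf13 were put in neither group.

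Total counts ranged from 8452460 to 10944833 per library, and the 7 genes held 0.491% to 0.56% of them. Values per library are counts scaled to a TMM-adjusted library size of 1000000 (CPM), and log2 fold changes are WT over KO. Gpr174 itself was at 135.9, 125.5 and 121.5 CPM in WT and at 99.85, 100.2 and 99.82 CPM in KO. Reads of the untranslated ends can be counted in both genotypes, so this gene does not check the labels. On the first principal component (40% of variance among the 500 most variable genes) WT replicate 2 scored 32.5, and the other 5 libraries lay between -8.18 and -4.33. Results that change without it are given below.

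Klf2 was lower in WT, Klf3 and Klf4 differed in opposite directions without passing the test, and the inducible members gave no detectable difference. Of the 7 genes, 1 passed an edgeR adjusted p under 0.05, lower in WT. Over all 10514 genes tested, 1.82% were called, 1.3% higher and 0.514% lower in WT. WT and KO values did not overlap in 3 of the 7 genes (Klf2, Klf3 and Klf4), where 16.7% of all genes did not. At an unadjusted p under 0.05 there were the same 3 of 7, against 11.9% of all genes. Whether a lower value reflects less RNA per cell or fewer cells of one kind cannot be told apart in these bulk samples.

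Klf2 (ENSMUSG00000055148.7, chromosome 8, 72319033 to 72321656, mm10) was counted at 2151, 2003 and 2205 CPM in WT replicates 1 to 3. In KO replicates 1 to 3 it was at 2555, 2423 and 2482 CPM. Every KO library lay above every WT library, and WT replicate 2 was the lowest of the 6. WT averaged 2120 CPM (SD 104.5) and KO 2487 CPM (SD 66.2) over 3 libraries each, so WT cells held 85.2% of the KO level. The log2 fold change was -0.23 ± 0.06 (SE; 95% interval -0.35 to -0.11), with an edgeR adjusted p of 0.0381. Klf2 ranked 23 among 10514 genes by level, and its 16798 to 28074 counts per library carry a counting error of at most 0.772%. The coefficient of variation between libraries was larger, 4.93% in WT and 2.66% in KO. The direction was kept in all 14 other fits, with log2 fold changes from -0.26 to -0.19. The call was kept under DESeq2 (adjusted p 0.00799) and limma-voom (0.0116). Leaving out a library ended it in 5 of 6 cases, all but WT replicate 3 (adjusted p 0.0444). Without WT replicate 2 the adjusted p was 0.159, without WT replicate 1 it was 0.0823, and without KO replicates 1, 2 and 3 it was 0.184, 0.082 and 0.181.

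Klf3 (chromosome 5, 64803388 to 64832901, mm10) was at 212.3, 206.3 and 246.6 CPM in WT and at 248.5, 264.9 and 277 CPM in KO. The groups did not overlap, but WT replicate 3 and KO replicate 1 were nearly level. The log2 fold change was -0.25 ± 0.08 (SE; 95% interval -0.41 to -0.08), similar in size to that of Klf2, with an edgeR adjusted p of 0.136. Its adjusted p came closest to the threshold without WT replicate 3, at 0.0503, and lay above it in every fit run. Within a library, Klf3 counts stood to Klf2 counts in nearly the same proportion in both genotypes, with a mean log2 ratio of -3.26 ± 0.09 (SD) in WT and -3.24 ± 0.11 (SD) in KO.

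Klf4 (chromosome 4, 55527143 to 55532466, mm10) lay the other way. It was at 95.7, 100.3 and 96.73 CPM in WT and at 65.08, 78.17 and 86.66 CPM in KO. The WT libraries sat close together, with a coefficient of variation of 2.47%, whereas the KO libraries were spread over 14.2%. The log2 fold change was 0.35 ± 0.11 (SE; 95% interval 0.13 to 0.57), with an edgeR adjusted p of 0.102. KO replicate 1 was the lowest library, and without it the log2 fold change was 0.24 (adjusted p 0.468). The adjusted p lay above 0.05 in all fits run, DESeq2 (0.0886) and limma-voom (0.109) included. The ratio of Klf4 to Klf2 counts within a library, chosen after the values were seen and given without a test, did not overlap between genotypes. Its log2 value was -4.49, -4.32 and -4.51 in WT and -5.3, -4.95 and -4.84 in KO.

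**Figure D1:**
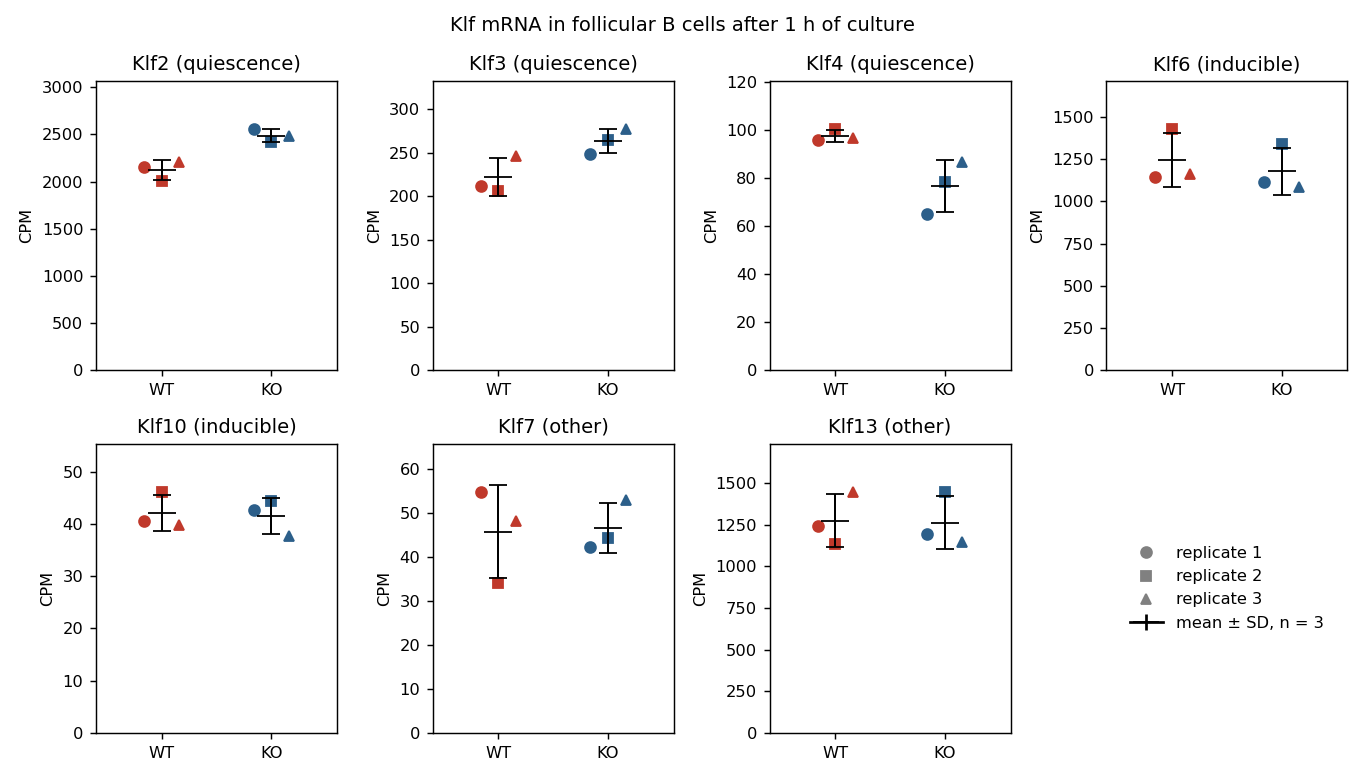
CPM of the 7 Klf genes (vertical axes, each starting at 0) in WT and KO libraries, with replicates 1 to 3 as circles, squares and triangles and the mean ± SD of 3 libraries in black. WT and KO points separate for Klf2 and Klf3, where KO is above, and for Klf4, where WT is above, and they intermingle for Klf6, Klf10, Klf7 and Klf13.

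The stretches before the start sites of the quiescence members and of Klf6 are shown to place the motifs of factors named above. RefSeq start sites (GRCm38.p6) were held for 6 of the 7 genes, all but Klf10. Each 250-base window was searched on both strands for the cAMP response element TGACGTCA, its core TGACG (contained in the former), the MEF2 site CTANNNNTAG, the FOXO site GTAAACA, the KLF box CACCC and the GC box GGGCGG. The full cAMP element and the FOXO site, as spelled here, were in none of the 6 windows and in 1.55% and 3.17% of the 32851 promoters searched. Other spellings of these sites were not searched, so their absence holds for these exact letters. The core was in those of Klf2, Klf4 and Klf13, and in 17.8% of all promoters. The MEF2 site, bound by known activators of Klf2, was in Klf2 alone of the 6 and in 3.2% of all. KLF boxes were in 4 of the 6 (Klf2, Klf3, Klf7 and Klf13) and in 52% of all, and GC boxes were in all 6 and in 32.7% of all. A match of letters is not evidence of binding. Shown in capitals are the core element, which begins 241 bases before the start of Klf2 and 232 bases before that of Klf4, and the MEF2 site, 118 bases before the start of Klf2. Bases inside the GENCODE gene were left off the printed stretches, but motifs in them are counted above. Such motifs are the KLF box 19 bases before the RefSeq start of Klf2 and the KLF boxes 120, 111 and 48 bases before that of Klf3. A GC box 89 bases before the RefSeq start of Klf3 was also left off. The stretches are chr8:72318812-72319032 (plus strand), chr5:64803271-64803387 (plus strand), chr4:55532476-55532725 (minus strand) and chr13:5861239-5861481 (plus strand), each 5′ to 3′ along its gene, and those of Klf3 and Klf6 hold neither motif.
Klf2: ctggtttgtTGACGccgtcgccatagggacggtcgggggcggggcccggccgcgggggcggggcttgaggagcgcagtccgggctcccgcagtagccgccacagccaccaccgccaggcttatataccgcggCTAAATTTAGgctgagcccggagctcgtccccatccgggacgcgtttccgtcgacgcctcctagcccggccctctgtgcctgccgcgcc
Klf3: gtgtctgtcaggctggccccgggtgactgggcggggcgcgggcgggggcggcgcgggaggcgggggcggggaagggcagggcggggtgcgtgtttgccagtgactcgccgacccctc
Klf4: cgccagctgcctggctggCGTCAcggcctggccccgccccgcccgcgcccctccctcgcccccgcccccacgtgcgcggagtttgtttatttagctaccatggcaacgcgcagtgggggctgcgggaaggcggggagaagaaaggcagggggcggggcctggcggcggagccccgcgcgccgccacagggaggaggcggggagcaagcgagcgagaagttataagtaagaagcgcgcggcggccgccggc
Klf6: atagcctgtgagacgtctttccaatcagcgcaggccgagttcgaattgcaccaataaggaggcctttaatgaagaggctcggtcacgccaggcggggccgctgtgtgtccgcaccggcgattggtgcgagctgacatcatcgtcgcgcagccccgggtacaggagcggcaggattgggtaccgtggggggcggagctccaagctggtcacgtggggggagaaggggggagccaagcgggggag

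Klf6 (chromosome 13, 5861482 to 5870394, mm10), an early inducible gene, was at 1144, 1427 and 1163 CPM in WT and at 1114, 1338 and 1084 CPM in KO. The genotypes overlapped, and replicate 2 was the highest library in both. The log2 fold change was 0.08 ± 0.09 (SE; 95% interval -0.12 to 0.28), with an edgeR adjusted p of 0.81. The sign turned without WT replicate 2, to -0.03. At 10247 to 12508 counts the counting error was below 1%, so that the interval reflects differences between libraries.

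Klf10 (chromosome 15, 38291463 to 38300706, mm10), the TGF-β inducible member, was at 40.53, 46.15 and 39.73 CPM in WT and at 42.69, 44.37 and 37.73 CPM in KO. The 2 groups covered almost the same range. The log2 fold change was 0.02 ± 0.13 (SE; 95% interval -0.25 to 0.29), with an edgeR adjusted p of 0.976. With 350 to 469 counts per library, counting error alone reached 5.35%, against a coefficient of variation near 8.3% in each group.

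Among the remaining members, Klf13 (chromosome 7, 63886351 to 63938915, mm10), a factor first known from late chemokine expression in T cells, was as abundant as Klf6. It was at 1244, 1135 and 1448 CPM in WT and at 1195, 1447 and 1148 CPM in KO. Each group held both low and high libraries, and the log2 fold change was 0.01 ± 0.10 (SE; 95% interval -0.20 to 0.23; edgeR adjusted p 0.975). Klf7 (chromosome 1, 64029447 to 64122282, mm10), better known from neurons, was at 54.8, 34.11 and 48.25 CPM in WT and at 42.32, 44.26 and 53.03 CPM in KO. WT replicate 2 was its lowest library and WT replicate 1 its highest, and the log2 fold change was -0.02 ± 0.15 (SE; 95% interval -0.33 to 0.29; edgeR adjusted p 0.976). An annotated gene runs antisense through part of Klf7, of Klf3 and of Klf13. The use of strand in counting was not stated, so reads from such partners cannot be told apart from theirs. No such partner had a row of its own in the count table. Same-strand annotated genes also overlap Klf3 (C230096K16Rik) and Klf7 (Mir6899), likewise without a row. Klf2, Klf4, Klf6 and Klf10 overlap no other annotated gene.

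**Figure D2:**
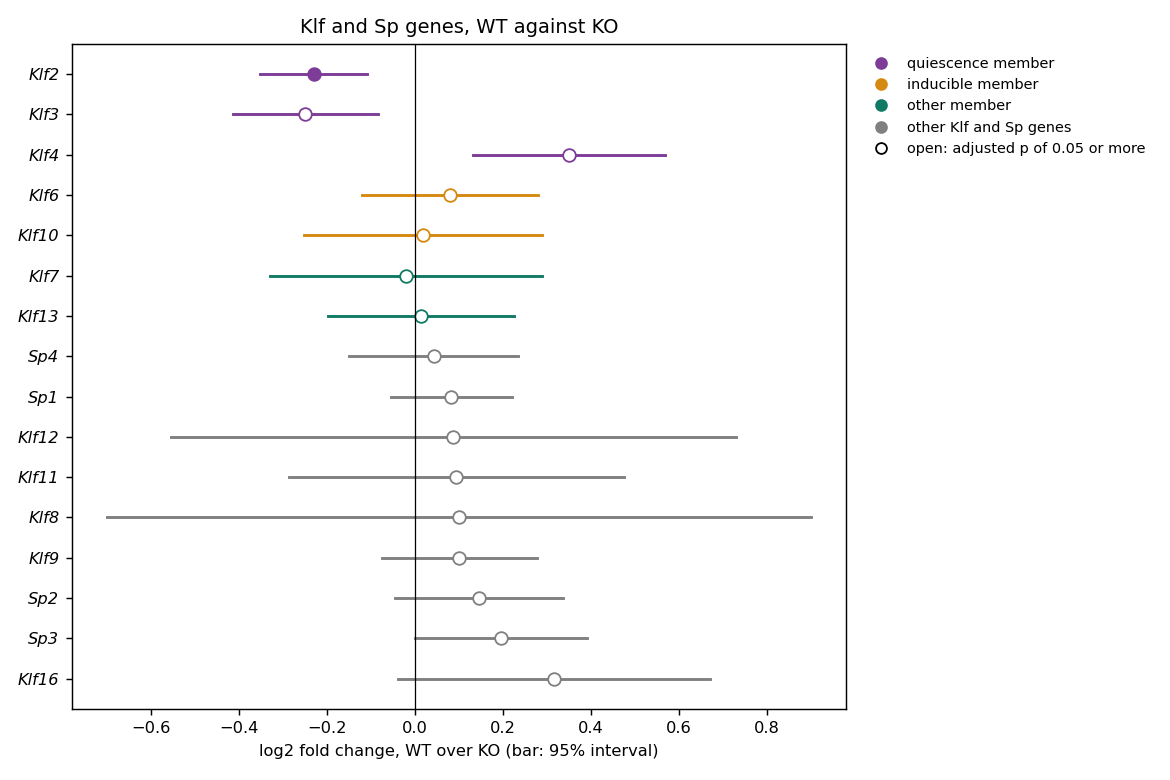
Log2 fold change of WT over KO (horizontal axis) for the 7 Klf members, coloured by role, and the 9 other Klf and Sp genes tested, in grey. Bars are 95% intervals, filled points passed an adjusted p of 0.05, and Klf2, at -0.23, is the filled one.

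The members kept nearly the same order of level in every library. Because the kit primes at the 3′ end of each transcript, counts were not divided by length, and levels between genes are counts of transcript ends. Klf2 was highest in 6 of 6 libraries, Klf3 held the fourth place and Klf4 the fifth in all of them. Klf13 and Klf6 held the second and the third place, at 1276 CPM ± 159.3 and 1245 CPM ± 158.1 in WT (SD, n = 3). They did not differ beyond their spread, and Klf6 stood above Klf13 in WT replicate 2 alone. Klf7 and Klf10 exchanged the last places between libraries. Klf2 made up 40.5% to 43.5% of the counts of the 7 genes in WT and 43% to 48.6% in KO, and Klf4 made up 1.84% to 2.03% and 1.24% to 1.68%.

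Quiescence and inducible members were then set against each other within each library, where the ratio does not depend on scaling. The log2 ratio of the summed counts of Klf2, Klf3 and Klf4 to those of Klf6 and Klf10 was 1.05, 0.65 and 1.08 in WT and 1.31, 1.00 and 1.34 in KO. Replicate 2 was the lowest library of each genotype, and the ranges overlapped. The mean was lower in WT by 0.29 (0.93 ± 0.24 in WT and 1.22 ± 0.19 in KO, SD, n = 3), more than the SD of either group. No test was made of this score. Klf2 dominates the sum. As a mean of log2 CPM, in which Klf4 counts as much as Klf2, the WT minus KO difference was -0.09, and without WT replicate 2 the ratio of sums differed by -0.15. The log2 fold changes of the quiescence members had both signs, and only that of Klf2 passed the test.

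**Figure D3:**
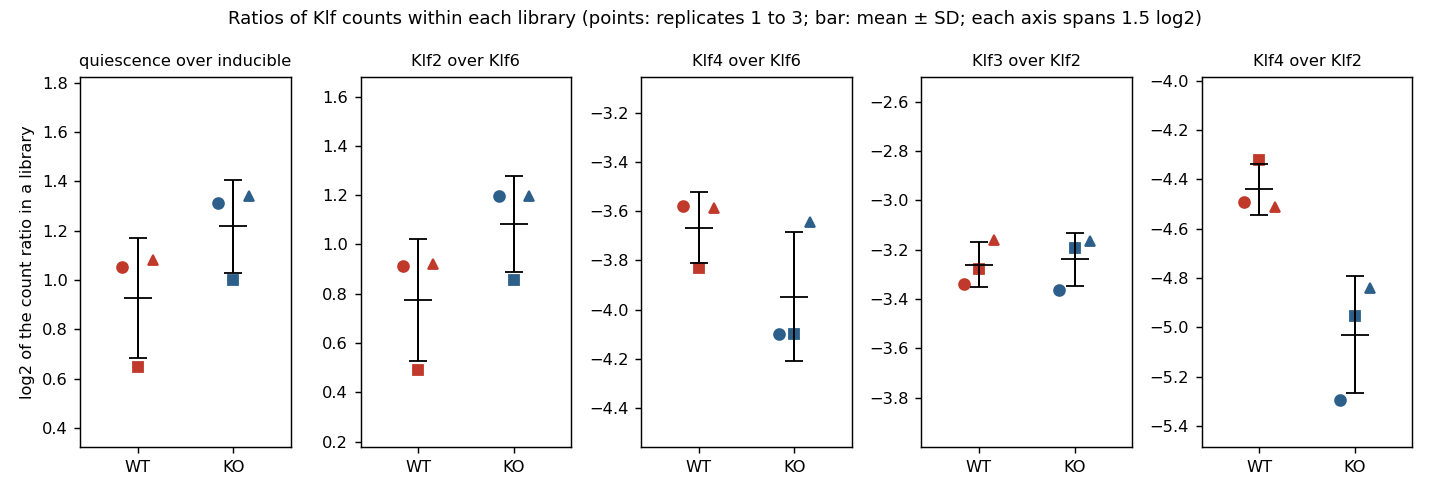
Log2 of count ratios within each library for WT and KO, with replicates 1 to 3 as circles, squares and triangles and the mean ± SD in black. WT and KO overlap for the quiescence to inducible ratio (WT 0.65 to 1.08, KO 1.00 to 1.34) and for Klf3 over Klf2, and separate for Klf4 over Klf2.

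The rest of the Klf and Sp family was measured next, since these proteins bind overlapping elements. Of 19 further genes, 12 were in the table and 9 passed the filter. None was called by edgeR, DESeq2 or limma-voom, and 1 had an unadjusted p under 0.05, against 11.9% of all genes. All 9 had log2 fold changes above 0, from 0.04 to 0.32, as did 49.6% of all genes tested, and their median was 0.10 against -0.003 for all genes. The 2 largest were Klf16, at 0.32 ± 0.17 (SE; edgeR adjusted p 0.495), and Sp3, at 0.19 ± 0.09 (SE; edgeR adjusted p 0.421). Klf9, the most counted Klf outside the 7 members, was named after its values were seen. It was on average at 153.7 CPM (SD 9.27) in WT and at 143.3 CPM (SD 9.06) in KO. Klf1, the erythroid member, had 0 to 7 counts per library and was too low to test, as were Klf5 and Klf15.

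Genes placed upstream of Klf2 were examined as a list of 16, comprising the MEK5-ERK5-MEF2 path, the class IIa histone deacetylases that hold MEF2 in check, FOXO factors and Foxp1, another forkhead factor. None was called by edgeR, DESeq2 or limma-voom, and the median log2 fold change was -0.04. An unadjusted p under 0.05 was found for 4, against 11.9% of all genes. Mef2a was at 44.55, 47.1 and 37.58 CPM in WT against 32.13, 36.41 and 31.29 CPM in KO, a log2 difference of 0.37 ± 0.14 (SE; edgeR adjusted p 0.223). Foxo1 averaged 1009 CPM (SD 113.2) in WT against 883.2 CPM (SD 75.3) in KO, a log2 difference of 0.19 ± 0.08 (SE; edgeR adjusted p 0.284). Without WT replicate 2 it passed the test (log2 fold change 0.27, edgeR adjusted p 0.0491). Among 15 tested cofactors and ubiquitin ligases of Klf proteins, none was called by edgeR, DESeq2 or limma-voom. There, 2 had an unadjusted p under 0.05, against 11.9% of all genes. These were Siah1a (log2 fold change 0.30) and Hdac2 (0.32), with edgeR adjusted p values of 0.376 and 0.398.

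Receptors of homing and egress, several of them known targets of KLF2 or FOXO1, gave 2 calls among 12 genes, both higher in WT, with a median log2 fold change of -0.02. Cxcr4, which retains B cells near CXCL12, was at 1320, 1208 and 1306 CPM in WT and at 953.9, 1037 and 893.1 CPM in KO. WT exceeded KO by 0.41 ± 0.07 on the log2 scale (SE; edgeR adjusted p 0.000313), and the call was kept in all 6 fits without one library. Ccr7, which guides B cells to the T cell zone, had a log2 fold change of 0.28 ± 0.06 (SE; edgeR adjusted p 0.0125), and it no longer passed when KO replicate 1 or KO replicate 3 was left out. Gpr183, the EBI2 receptor that positions B cells at the follicle's edge, was named after its values were seen, with a log2 fold change of -0.33 ± 0.10 (SE; edgeR adjusted p 0.137). It was called lower in WT by DESeq2 (adjusted p 0.0422) and by edgeR without WT replicate 2 (0.00785) or KO replicate 1 (0.0249) and with the replicate block (0.00171). S1pr1 and Itgb7, named after their values were seen because they are known targets of KLF2, were not called. Their log2 fold changes were -0.04 (95% interval -0.19 to 0.12) for the egress receptor S1pr1 and 0.01 (-0.20 to 0.23) for the β7 integrin.

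Other genes that hold lymphocytes at rest were higher in WT where they passed the test. Of 19 tested, 4 were called higher and 0 lower, with a median log2 fold change of -0.02. Tob2, an antiproliferative adaptor of mRNA deadenylation, was at 398.3, 445.5 and 415.6 CPM in WT and at 197.4, 240.4 and 217.7 CPM in KO. Every WT library held more than every KO library, and the log2 fold change was 0.94 ± 0.08 (SE; edgeR adjusted p 4.49e-09). Its relative Btg2 had a log2 fold change of 0.65 ± 0.07 and the cyclin kinase inhibitor Cdkn1a of 1.05 ± 0.21 (SE), with edgeR adjusted p values of 5.59e-07 and 0.00397. Cdkn1a, which rested on 10.06 CPM in KO, lost its call without KO replicate 3. Without KO replicate 3, 2 of the 19 were called. No gene of a list of 17 for cell cycle entry was called by edgeR, DESeq2 or limma-voom. In that list 4 had an unadjusted p under 0.05, against 11.9% of all genes. The 2 with the smallest p were E2f2 (log2 fold change -0.30, edgeR adjusted p 0.114) and Ccnd3 (-1.15, 0.147, at 3.17 CPM in WT).

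Early inducible genes outside the family were measured beside Klf6 and Klf10. Of 17 tested, 7 were called higher in WT and 2 lower, with a median log2 fold change of 0.18. Nr4a2, Ier2 and Junb had log2 fold changes of 1.92, 1.12 and 1.03, and Btg2, which is also in the list above, had 0.65. The lower ones were Jun, whose call was lost in 4 of the 6 fits without one library, and Jund. With the replicate block 11 were called, 7 higher and 4 lower, where Egr2 (log2 fold change -0.66, edgeR adjusted p 8.87e-05) and Egr1 (-0.45, 0.0277), named after their values were seen, also passed as lower in WT. The upper ends of the 95% intervals of Klf6 and Klf10 were 0.28 and 0.29. The difference between the lists was not tested.

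**Figure D4:**
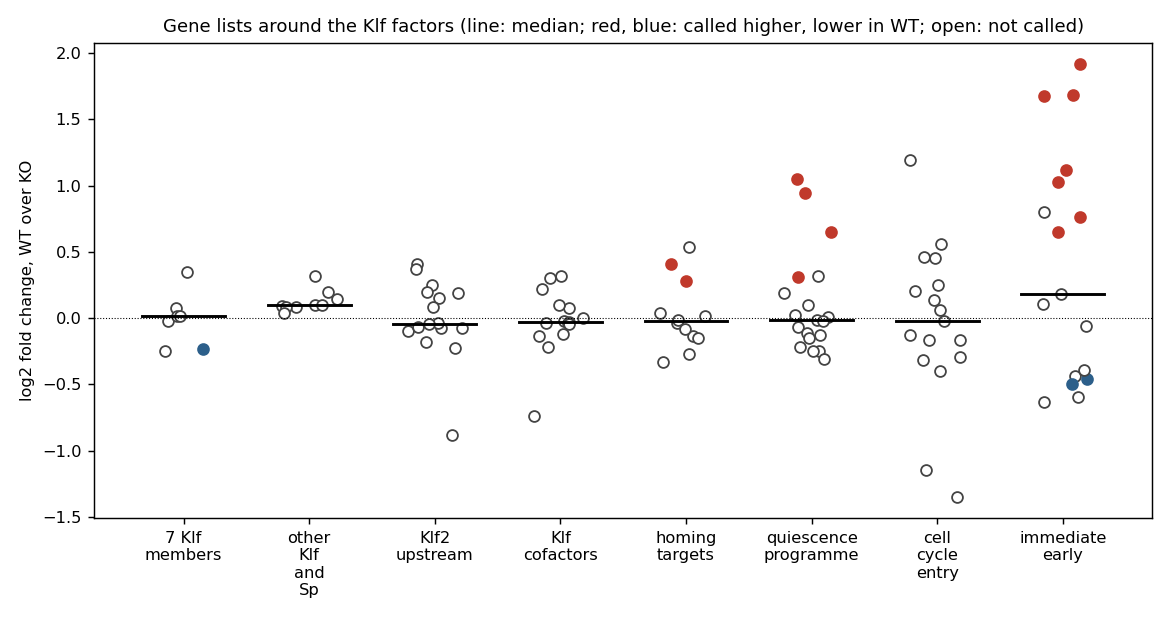
Log2 fold change of WT over KO (vertical axis) for each tested gene of 8 lists, with the list's median as a line, red for genes called higher in WT, blue for genes called lower and open for the rest. The Klf members lie between -0.25 and 0.35, whereas early inducible genes reach 1.92.

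For each of Klf2 and Klf6, genes were sought whose pattern over the 6 libraries lay nearest, by the root mean square difference of log2 CPM centred on each gene's mean, among the 8553 genes that averaged 50 counts or more. Those nearest Klf2 were Rgl2, Elf4, Ncln and Ttc13, at 0.02 to 0.03 log2 units, where the median gene lay at 0.20. Elf4, an ETS factor known for restraining T cell proliferation, differed by -0.21 on the log2 scale (edgeR adjusted p 0.338), and none of the 4 was called. Those nearest Klf6 were Map3k9, Cacybp, Vps54 and Prpf3, at 0.03 to 0.04, where the median gene lay at 0.22, and none was called.

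Cell markers were measured beside these values, since KLF4 is abundant in myeloid cells, KLF2 in endothelium and T cells, and KLF1 in erythroid cells. Follicular B markers, 10 of 12 in the table, summed to 6018 to 6338 CPM in WT and 6611 to 6944 CPM in KO, the same direction as Klf2. The paper reports Fcer2a and Cd22, both among these markers, as higher in GPR174-deficient B cells after longer culture. This sum therefore need not follow the number of follicular cells. Cd79b was called lower in WT in that list (log2 fold change -0.39, edgeR adjusted p 0.000358). Myeloid markers summed to 247.3 to 290.7 CPM in WT and 245.7 to 282.9 CPM in KO, and the ranges overlapped. Most of this sum was Cst3, at 184.8 to 219.8 CPM in WT and 191.4 to 233.5 CPM in KO. The sum therefore mainly follows that gene and does not show whether the other myeloid markers were level. Of 10 tested myeloid markers 0 were called and 9 had log2 fold changes above 0, the direction of Klf4. NK markers summed to 8.4 to 14 CPM in WT and 6.04 to 7.52 CPM in KO, and 0 of 2 tested were called. T markers summed to 48.82 to 68.45 CPM in WT and 35.41 to 55.27 CPM in KO, mostly Lck (Cd3e and Cd3g were too low to test), and erythroid markers to 35.3 to 72.89 and 40.26 to 140.3 CPM, with 0 called in either list. Marginal zone markers summed to 705.7 to 885.3 and 663.9 to 918.9 CPM, with 0 of 7 called. Log2 fold changes were above 0 for 5 of 5 tested T markers, 6 of 7 marginal zone markers and 1 of 2 NK markers. They were above 0 for 0 of 3 erythroid and 3 of 10 follicular B markers, and for 49.6% of all genes. Plasma cell markers summed to 424.7 to 505.5 CPM in WT and 545.6 to 609.1 CPM in KO, where Irf4, which B cells also express, was called lower in WT (log2 fold change -0.38, edgeR adjusted p 0.0043). Of endothelial markers only Pecam1, also a B cell gene, was tested, and Vwf and Eng had 0 to 12 counts per library. The part of these cells in the Klf values was not tested.

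**Figure D5:**
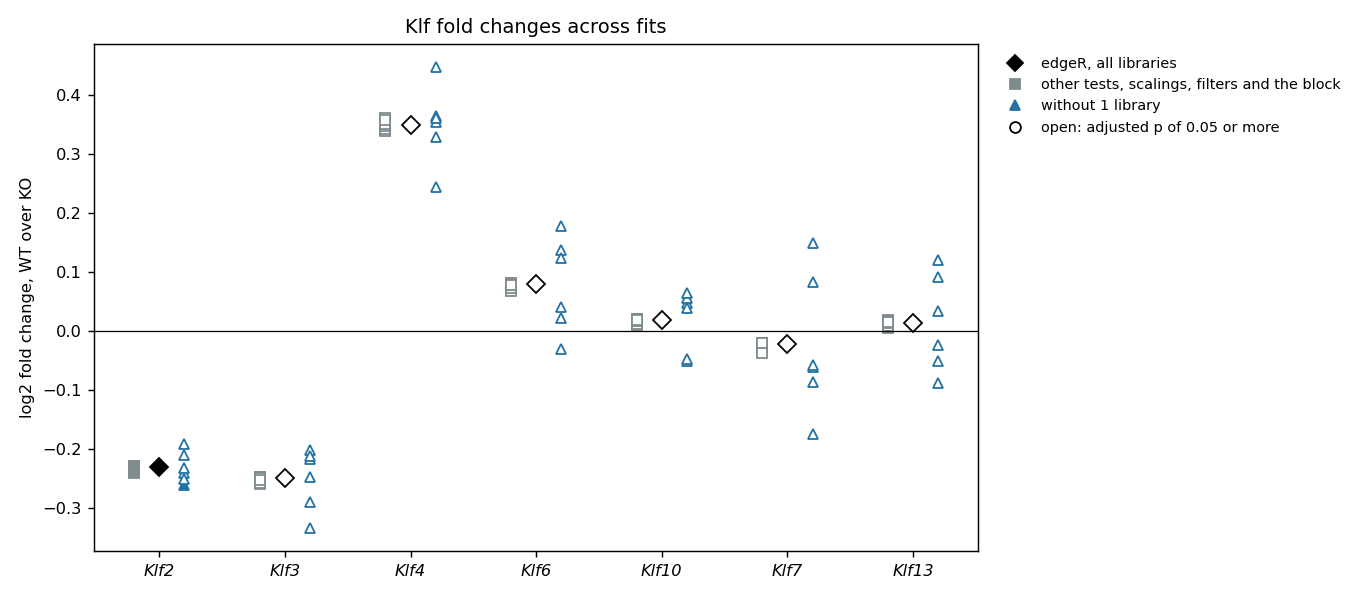
Log2 fold change of WT over KO (vertical axis) of each Klf gene in the edgeR comparison (diamonds), under other tests, scalings, filters and the replicate block (squares) and without 1 library in turn (triangles), with filled symbols for adjusted p under 0.05. Klf2 and Klf3 stay below 0 and Klf4 above 0 in all 15 fits, whereas Klf6, Klf10, Klf7 and Klf13 fall on both sides.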

How the data were processed

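RNA of sorted follicular B cells was measured in 3 WT and 3 KO libraries, grouped by their titles. Per the study's methods, the authors used a kit that primes at 3′ ends, sequenced single-end reads, aligned them to mm10 with STAR and counted them per gene with HTSeq. DESeq2 is also named in the submitters' processing notes. Versions, annotation and the use of strand are not given in the sources used here. The deposited values are raw counts, not normalized, and 0 sample columns were left unused. Rows total at least 10 counts. Total counts ranged from 8452460 to 10944833. Libraries within a group differed by a chi-square of 6.89 to 10.9 per degree of freedom, so none was a copy of another. Nothing says whether replicates came from separate cultures. The paper gives 3 mice per genotype for its experiment with longer culture, and no number of mice for these libraries. The p-values measure the spread between these libraries. Reads carry no molecular identifiers, and counting errors (1 over the square root of the count) cover counting only.

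Genes were filtered with filterByExpr, scaled by TMM and tested with edgeR 4.0.16 (R 4.3.3), by its quasi-likelihood F test with robust dispersions over 10514 genes. Tests were two-sided and adjusted by Benjamini-Hochberg, with a threshold of 0.05. Standard errors are the absolute log2 fold change over the square root of F, and 95% intervals use the test's degrees of freedom and are not adjusted. CPM are counts scaled to a filtered, TMM-adjusted library size of 1000000. The principal components used the 500 most variable genes. Alternatives were DESeq2 1.42.0, limma-voom (limma 3.58.1), upper-quartile or RLE factors, unscaled totals, all genes unfiltered, a minimum mean of 50 counts, the replicate number as a block, and each library left out. The tests were checked on simulated counts. Positions are from GENCODE M21 and promoters from RefSeq GRCm38.p6.

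All members are named. Some genes of the lists count in their totals but are not reported here by name. From each other list, genes past the threshold were named, up to 4 by smallest p, and otherwise the 2 of smallest p. For marker lists with no call only summed levels are given, apart from genes that a sentence turns on. For other Klf and Sp genes the 2 largest changes were named, and for the nearest patterns 4 genes each. Members, lists and rules were chosen with earlier results of these data known. The Klf role groups rest on general knowledge.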

Additional observations from a re-analysis of the deposited data

How the results depend on the processing

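Klf2, Klf3 and Klf4 kept their direction in all 14 alternatives. Other tests, scalings and filters changed no call on the 7 genes. The number of called members stayed at 1 in these and ranged from 0 to 1 when one library was left out. In the same fits the number called ranged from 0 to 1 among genes upstream of Klf2, from 1 to 3 among homing receptors, from 2 to 4 among resting-state genes and from 7 to 9 among early inducible genes. These fits hold fewer libraries. Signs of members near 0 turned in some of them: Klf6 (-0.031), Klf7 (0.15) and Klf10 (-0.051) without WT replicate 2, Klf7 (0.082), Klf10 (-0.048) and Klf13 (-0.051) without KO replicate 3, and Klf13 without WT replicate 3 (-0.088) and without KO replicate 1 (-0.024). Their log2 fold changes ranged from -0.031 to 0.18 (Klf6), -0.051 to 0.064 (Klf10), -0.17 to 0.15 (Klf7) and -0.088 to 0.12 (Klf13). The quiescence to inducible difference lay between -0.40 and -0.15 in them. It was -0.17 without Klf2, -0.21 with Klf13 and Klf7 added and -0.09 as a mean of log2 CPM. Same-numbered WT and KO libraries share only a number in the labels, and their deviations correlated at 0.0136 to 0.0498, each highest with its own number. With the replicate block, 281 genes were called in place of 191, 1 of the 7 members among them (Klf2, log2 fold change -0.23, adjusted p 0.0156), and Klf3 and Klf4 had adjusted p values of 0.0608 and 0.0535. DESeq2 called 258 genes and limma-voom 172. Without one library the count ranged from 91 to 183. Depth limits Klf7 and Klf10, at 286 to 599 counts per library, and Klf1, Klf5 and Klf15, which were not tested.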
